A study of Mus musculus with 4 samples.

Results

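The genes described here are the light chain variable (V) segments of mouse immunoglobulin, measured in single cells of colon and read mainly in plasma cells. They were chosen by symbol and by summed counts: a gene was taken when its symbol began with Igkv or Iglv followed by a digit and its counts summed to at least 20 over the 4 deposited matrices. That rule gave 84 segments of 29897 listed genes: 81 kappa segments on chromosome 6 and 3 lambda segments on chromosome 16. Of the 84, 67 had at least 100 counts and 30 at least 1000, and 83 are annotated as V genes in GENCODE M21 and 1, Igkv3-11, as a pseudogene. The matrices listed 149 such symbols, and the 65 below the limit held 294 counts in all, with 46 of the 65 annotated as pseudogenes. The lowest segment taken was Igkv3-9 with 21 counts, and the highest left out was the pseudogene Igkv2-116 with 19.

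The study compared 2 libraries of colon from mice given CCl4 for 6 weeks with 2 libraries of colon labelled control, for which no other treatment is named. CCl4 is carbon tetrachloride, a solvent best known as a liver toxin, and the series title names liver cirrhosis. The mice given CCl4 were 6-week-old specific-pathogen-free mice; the sources used here name no strain, sex, dose or route. Neither the number of animals behind a library nor whether the libraries of a group came from the same animals is stated. The p-values below therefore speak only of variation among these 4 libraries, some or all of which may be technical. A difference between the groups, here called higher or lower in CCl4, cannot be told apart from a difference between animals.

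Each B cell joins 1 V segment to a short joining segment and a constant region to make its light chain, of kappa or of lambda type, and allelic exclusion usually leaves a cell with a single working light chain. A plasma cell secretes that antibody in bulk, and the V segment in its transcripts is shared by all descendants of the same B cell. Plasma cells of the gut lining make mostly IgA, and in mice kappa chains far outnumber lambda chains.

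Plasma cells formed 1 cluster in which Jchain, which links IgA units, was counted in 99.9% of cells, the secretory adaptor Mzb1 in 93.2% and the plasma cell factor Xbp1 in 97.1%. There were 299 and 258 plasma cells in the CCl4 libraries and 565 and 550 in the control libraries, 1672 of 36519 cells used. Their median depth was 14186 and 12085 counts in CCl4 and 13875 and 15545 in control. At least 3 of 6 epithelial markers were counted in 26.1% and 15.5% of CCl4 plasma cells and in 9.38% and 8.36% of control plasma cells. All 6 markers were detected in every library, and their summed level was 411 and 315 CPM in CCl4 plasma cells and 178 and 193 CPM in control; the part of this in the results below was not tested. Barcodes were running numbers, so 8191 to 10738 names were shared by each pair of libraries, yet 0 barcodes of different libraries had the same profile. Of the 152560 counts of the 84 segments over all deposited barcodes, 91.6% lay in the plasma cells used.

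Of the plasma cells, 284 and 245 in CCl4 and 527 and 513 in control had at least 5 light V counts and a single segment with the most. Each of these assigned cells was given its leading segment. The leading segment held a median of 88.0% and 87.9% of the light V counts of a cell in CCl4, and 84.7% and 85.7% in control. The cells without an assignment were shallow, with a median of 1790 and 1830 counts in CCl4 and 1963 and 1803 in control for those below 5 light V counts.

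The last 120 bases of 4 kappa segments whose share of plasma cells differed between the groups by several percentage points, and of the lambda segments Iglv1 and Iglv2, are shown because it is by such stretches that reads of like segments are told apart. They are taken from GENCODE M21 transcripts on GRCm38 in transcript direction, and capitals mark bases that differ from, or have no counterpart in, the most similar other segment of the 84. That segment was Igkv8-19 for Igkv8-21 (chr6:70314895-70315014, minus strand), Igkv1-122 for Igkv1-99 (chr6:68542303-68542422, plus strand), Igkv9-120 for Igkv9-124 (chr6:67942074-67942193, minus strand) and Igkv14-100 for Igkv14-111 (chr6:68256750-68256869, plus strand). Iglv1 (chr16:19085017-19085136, minus strand) and Iglv2 (chr16:19260401-19260520, minus strand) were set against each other.
Igkv8-21: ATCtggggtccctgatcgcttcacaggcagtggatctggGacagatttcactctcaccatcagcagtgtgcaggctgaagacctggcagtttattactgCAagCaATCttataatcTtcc
Igkv1-99: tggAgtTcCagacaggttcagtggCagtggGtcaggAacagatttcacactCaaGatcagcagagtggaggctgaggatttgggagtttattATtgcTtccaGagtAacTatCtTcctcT
Igkv9-124: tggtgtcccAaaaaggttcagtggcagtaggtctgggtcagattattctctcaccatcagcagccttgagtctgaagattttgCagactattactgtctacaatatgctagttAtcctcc
Igkv14-111: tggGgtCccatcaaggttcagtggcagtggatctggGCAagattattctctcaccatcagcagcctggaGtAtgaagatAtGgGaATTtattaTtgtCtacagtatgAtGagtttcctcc
Iglv1: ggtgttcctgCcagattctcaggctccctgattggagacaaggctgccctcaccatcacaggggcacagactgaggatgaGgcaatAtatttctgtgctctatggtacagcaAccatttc
Iglv2: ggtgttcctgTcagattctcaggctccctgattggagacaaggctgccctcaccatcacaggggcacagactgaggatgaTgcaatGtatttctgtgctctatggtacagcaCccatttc

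Over the last 290 bases, Igkv1-99 was 84.9% identical to its nearest neighbour, Igkv14-111 82.4%, Igkv8-21 90.8% and Igkv9-124 94.8%. Iglv1 and Iglv2 were 97.6% identical and differ at 4 of the 120 bases shown. Over all 84 segments the median identity to the nearest was 94.1%, and 35 had a neighbour at 95% or more. How the authors' counting treated reads that match several segments is not given, so counts of such neighbours are uncertain.

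Usage was spread over many segments in every library. The most used segment was Iglv1 in CCl4 library 1 (30 cells), Igkv14-111 in CCl4 library 2 (27 cells), Igkv8-21 in control library 1 (82 cells) and Iglv1 in control library 2 (68 cells). Taken within the chain of the constant region with more counts, an alternative added after the data were seen, the order changed in 2 libraries: Igkv14-111 led 25 cells and Iglv1 24 in CCl4 library 1, and Igkv8-21 led 56 and Iglv1 48 in control library 2. Of the 84 segments, 74 led at least 1 plasma cell, 38 led cells in all 4 libraries and 10 led none. The plot of leading segments by library shows the 20 most used.

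**Figure D1:**
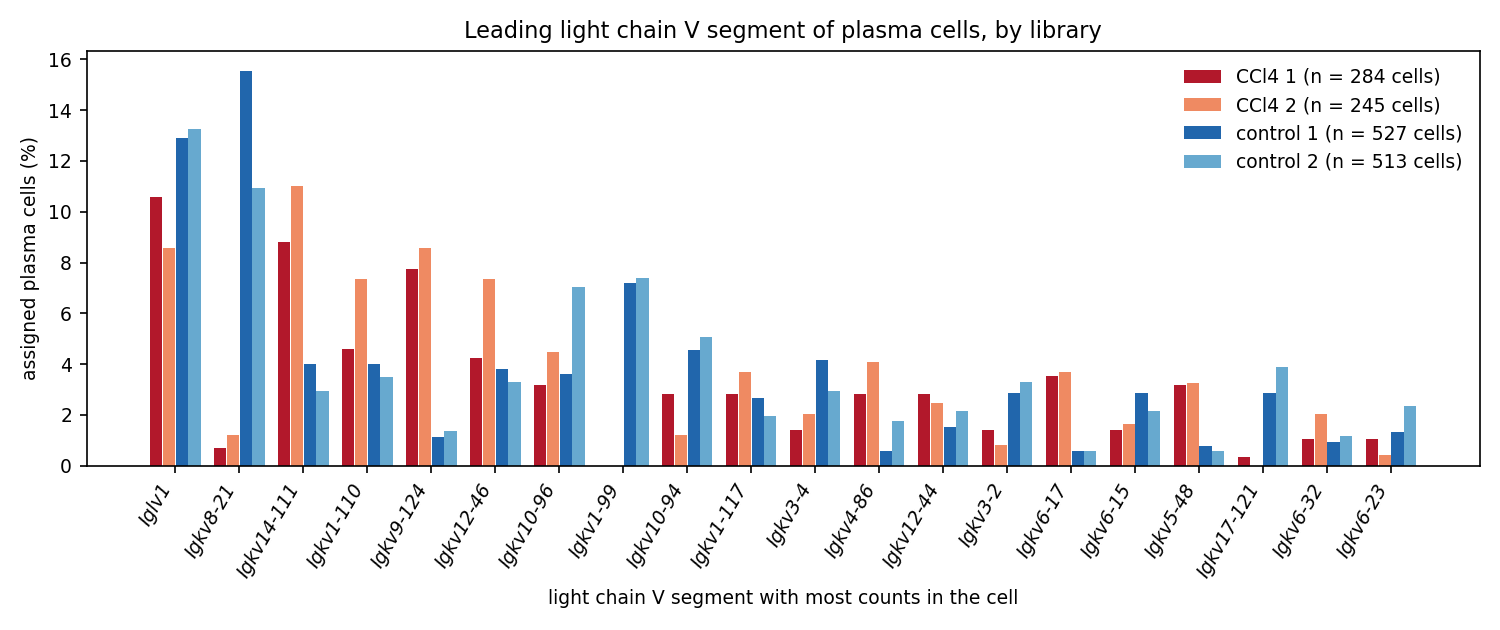
Percent of assigned plasma cells (vertical axis) whose leading light V segment is the one named (horizontal axis), for the 20 segments with the highest mean over libraries; 1 bar per library, with no error bar. Igkv14-111 and Igkv9-124 stand higher in both CCl4 libraries and Igkv8-21 and Igkv1-99 in both control libraries.

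Igkv8-21, a segment in the part of the kappa locus near the constant gene Igkc, led 2 and 3 cells in CCl4 and 82 and 56 cells in control. That is 0.704% and 1.22% of assigned cells in CCl4 against 15.6% and 10.9% in control, so the groups did not overlap. edgeR's quasi-likelihood test on cells per segment gave a log2 ratio of -3.77 ± 0.46 (SE; adjusted p = 0.000393). SE here and below is the size of the log2 ratio divided by the square root of the test's F statistic, not a separate estimate. Of the 134 control cells in which a heavy chain V segment could also be read, 132 carried Ighv2-4; of 5 such CCl4 cells, the most frequent partner was Ighv1-75, in 3 cells.

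Igkv1-99 led 0 cells in both CCl4 libraries and 38 in each control library. The 0 of 529 assigned CCl4 cells allows a share of up to 0.567% (limit of 3 cells over the group). Limits and intervals here cover counting error only. The share in the 1040 control cells was 7.31%, or 12.9 times that limit, with the counting error of the control share left out. In summed counts of plasma cells Igkv1-99 had 0 counts in CCl4 and 8328 in control. The control cells it led held a median of 111.5 light V counts each, so counts are not independent and no fold limit is drawn from them. Over all deposited barcodes the CCl4 libraries held 1 and 7 counts of Igkv1-99, and the control libraries 3913 and 5336. Its control cells were spread over many heavy chain partners: 19 heavy V segments in 75 cells, with Ighv1-76 the most frequent in 18 of them.

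Igkv9-124, from the far end of the locus, led 22 and 21 cells in CCl4 and 6 and 7 in control, which is 7.75% and 8.57% against 1.14% and 1.36%. Both CCl4 values lay above both control values (log2 ratio 2.67 ± 0.29, SE; edgeR adjusted p = 0.000296). Ighv10-3 was the heavy partner in 29 of 42 CCl4 cells and Ighv1-7 in 5 of 13 control cells.

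Igkv14-111 led 25 and 27 cells in CCl4 and 21 and 15 in control, or 8.80% and 11.0% against 3.98% and 2.92%. The groups did not overlap, with a log2 ratio of 1.5 ± 0.27 (SE; edgeR adjusted p = 0.00361). In CCl4, 41 of 50 cells paired it with Ighv1-39, whereas 36 control cells held 17 heavy V segments and none made up more than 16.7%. Counting each heavy and light pair once per library, an alternative added after the data were seen, turned its log2 ratio to -0.45 (adjusted p = 0.589).

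Of 35 segments that led at least 10 cells over the libraries, 13 were called in cells per segment at an adjusted p under 0.05, which is 37.1% of those tested. Called higher in CCl4 were 7 (20% of those tested): Igkv9-124, Igkv14-111, Igkv6-17, Igkv5-48, Igkv8-27, Igkv4-86 and the lambda segment Iglv2. Called lower were 6 (17.1%): Igkv1-99, Igkv8-21, Igkv17-121, Igkv6-14, Igkv10-94 and Igkv3-2. Library values did not overlap between groups for 15 segments higher in CCl4 (42.9%) and 12 lower (34.3%). Without CCl4 library 1 the count called was 6 and without CCl4 library 2 it was 8. With DESeq2, or with each pair counted once per library, 1 segment, Igkv1-99, was called. Igkv1-99 had 0 cells in both CCl4 libraries and reached the minimum of 10 cells through control alone, so its call adds nothing to the bound given above. The calls of Igkv1-99, Igkv9-124, Igkv8-21, Igkv14-111 and Igkv6-17 held with any 1 library left out.

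Among those called lower, Igkv17-121 led 1 and 0 cells in CCl4 and 15 and 20 in control (log2 ratio -3.94 ± 0.73, SE). Without CCl4 library 2 the call was lost (-3.16; edgeR adjusted p = 0.0578). Its closest relative Igkv17-127, 97.9% identical, led 6 and 3 cells in CCl4 and 4 and 3 in control and was not called (edgeR adjusted p = 0.124). Igkv10-94 led 8 and 3 CCl4 cells and 24 and 26 control cells (log2 ratio -1.20 ± 0.37, SE). In 45 of 50 control cells it came with Ighv13-2, a pair absent from the CCl4 cells. Its ratio turned to 0.59 with each pair counted once, and leaving out any 1 library lost its call, the highest edgeR adjusted p being 0.321 (-0.77) without CCl4 library 2. Igkv3-2 led 4 and 2 cells in CCl4 and 15 and 17 in control, and its call was also lost without any 1 library (-1.11; edgeR adjusted p = 0.329 without CCl4 library 2). Igkv6-14 led 1 and 0 cells in CCl4 and 8 and 11 in control, and its call was lost without CCl4 library 1 (-5.99), CCl4 library 2 (-2.29) or control library 2 (-2.79), with edgeR adjusted p-values of 0.106, 0.238 and 0.118.

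Among those called higher, Igkv6-17 led 10 and 9 cells in CCl4 and 3 and 3 in control. Igkv5-48 led 9 and 8 in CCl4 and 4 and 3 in control, and lost its call without CCl4 library 1 (2.23; edgeR adjusted p = 0.0661). Igkv8-27 led 6 and 4 cells in CCl4 and 1 and 2 in control, and lost its call without CCl4 library 1 (2.39; edgeR adjusted p = 0.100), control library 1 (2.18; 0.0948) or control library 2 (3.10; 0.0709). Igkv4-86 led 8 and 10 cells in CCl4 and 3 and 9 in control, or 2.82% and 4.08% against 0.569% and 1.75%, and lost its call without CCl4 library 1 (1.80; edgeR adjusted p = 0.116), CCl4 library 2 (1.27; 0.321) or control library 1 (0.94; 0.213). Ighv1-9 was the partner in 15 of 17 CCl4 cells. Igkv7-33 was below the 10 cells needed for this test: it led 5 and 3 cells in CCl4, every one with Ighv7-1, and 0 of 1040 in control, which allows up to 0.288%.

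The other frequent kappa segments were not called in cells per segment. Igkv1-110 led 13 and 18 cells in CCl4 and 21 and 18 in control (log2 ratio 0.64 ± 0.30, SE; edgeR adjusted p = 0.124). Igkv12-46 led 12 and 18 against 20 and 17 (0.67 ± 0.32; edgeR adjusted p = 0.124), and Igkv1-117 led 8 and 9 against 14 and 10 (0.47 ± 0.35; 0.352). In summed counts of plasma cells, however, Igkv1-117 was called higher in CCl4 (log2 ratio 0.82, edgeR adjusted p = 0.0138). That call was lost with doublets kept (edgeR adjusted p = 0.05575). Igkv10-96 led 9 and 11 cells in CCl4 and 19 and 36 in control, with overlapping shares (log2 ratio -0.48 ± 0.42; edgeR adjusted p = 0.351).

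Summed counts weigh each segment by cells and by counts per cell, and fewer cells of a kind cannot be told apart from less RNA per cell in them. The filter on low counts left 62 of the 84 segments, 22 not being tested. Of the 62, 5 had under 10 counts in both CCl4 libraries and 1 in both control libraries, so these passed wholly or partly through the other group. edgeR's quasi-likelihood test called 18, 10 higher and 8 lower in CCl4, where over all 11076 genes tested 1.5% were called (1.03% higher and 0.469% lower). The 18 include 4 segments with 0 counts in a whole group. Those 4 passed the filter through the other group alone, so their calls add nothing to the zeros, and 14 calls remain beside them. The median log2 ratio of the segments tested was 0.50 and its median size 1.38, beside -0.00421 and 0.244 over all genes. Library values did not overlap for 23 segments higher in CCl4 and 16 lower, where all genes gave 22% and 22.2%. Leaving out any 1 library raised the count called to between 33 and 38, and the share of all genes called to between 2.09% and 2.9%.

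**Figure D2:**
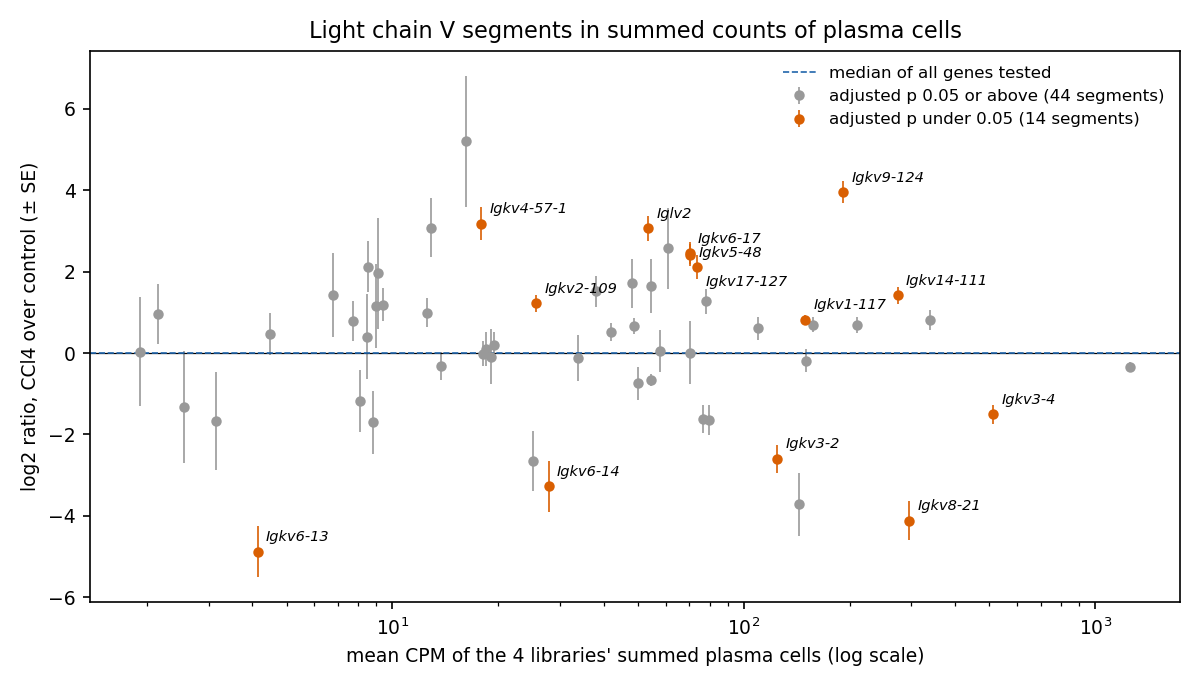
Log2 ratio of CCl4 over control with its SE (vertical axis) against the mean TMM-scaled CPM of the 4 libraries (horizontal axis, log scale) for 58 light V segments in summed counts of plasma cells; 4 further segments at 0 in a group are not drawn. The 14 segments drawn with an adjusted p under 0.05 lie on both sides of the dashed median of all genes.

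On the scale of TMM-scaled CPM, Igkv9-124 had 369 and 351 CPM in CCl4 and 15.1 and 30.9 CPM in control (log2 ratio 3.96 ± 0.27, SE; edgeR adjusted p = 0.000112). Igkv8-21 had 13.9 and 51.5 CPM in CCl4 against 698 and 416 CPM in control (-4.12 ± 0.48; edgeR adjusted p = 0.00363). Igkv7-33 held 557 counts in CCl4 plasma cells and 0 in control. By cells, its share in CCl4 was 1.51%, or 5.24 times the limit of 3 cells over the control group. The counting error of its 8 CCl4 cells is left out of that ratio. All 8 carried Ighv7-1 and may not be independent, so no least fold is drawn.

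Iglv2, Igkv6-17, Igkv5-48 and Igkv17-127 were also called higher. Igkv6-17 had 120 and 117 CPM in CCl4 and 29.3 and 14.4 in control, Igkv5-48 had 104 and 133 against 29.8 and 15.03, and Igkv17-127 had 152 and 87.1 against 35.6 and 20.1. Their groups were apart, with log2 ratios of 2.45, 2.41 and 2.11 and edgeR adjusted p-values of 0.00261, 0.00350 and 0.0111. A single cell held 30.5% and 72.1% of the Igkv17-127 counts in the CCl4 libraries and 35.6% and 38.2% in the control libraries. By cells Igkv17-127 was not called. Of those called lower, Igkv3-2 had 49.8 and 19.5 CPM in CCl4 and 174 and 253 in control (log2 ratio -2.60; edgeR adjusted p = 0.00702). Igkv6-14 had 9.65 and 0 CPM against 46.2 and 55.5 (-3.28; edgeR adjusted p = 0.0407), a call lost with DESeq2 (adjusted p = 0.999), with doublets kept (edgeR adjusted p = 0.119) and with stricter cell filters (0.0649).

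Igkv3-4 was called in summed counts and not in cells. It led 4 and 5 cells in CCl4 and 22 and 15 in control (log2 ratio -1.05 ± 0.40, SE; edgeR adjusted p = 0.0732). In summed counts it had 268 and 263 CPM in CCl4 and 985 and 530 CPM in control, second only to Iglv1 in total, and was called lower (-1.51 ± 0.24; edgeR adjusted p = 0.0162). A single cell held 38.5% and 29.1% of its counts in the CCl4 libraries and 10.2% and 11.3% in the control libraries. Of the segments called in summed counts and in cells, 9 were common to both, and in all 9 the direction was the same. Both tests read the same cells, and a cell is assigned by its own counts, so this agreement is no separate support.

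Of 20 families of segments, 16 (80%) had library shares that did not overlap between the groups, 8 higher and 8 lower in CCl4, and 4 overlapped (Igkv1, Igkv6, Igkv15 and Igkv16). Among segments tested by cells 42.9% were apart higher and 34.3% lower, and among all genes in summed counts 22% and 22.2%. Some families held few cells, such as Iglv3 with 0 and 0 in CCl4 and 1 and 5 in control. Of the 91 and 73 control cells of family Igkv8, Igkv8-21 led 82 and 56. Family Igkv9 took 8.80% and 9.39% of assigned cells in CCl4 and 1.33% and 1.56% in control, and family Igkv5 took 4.93% and 4.49% against 0.949% and 1.17%. Family Igkv4, the largest with 19 segments, took 9.86% and 10.6% in CCl4 and 5.88% and 5.85% in control. Family Igkv8 took 7.75% and 4.90% in CCl4 and 17.3% and 14.2% in control. Family Igkv14 took 8.80% and 11.0% in CCl4 and 3.98% and 3.31% in control, and family Igkv12 took 7.39% and 11.8% against 5.69% and 5.85%. Family Igkv3 took 5.99% and 4.49% in CCl4 and 11.0% and 8.38% in control, and family Igkv10 took 5.99% and 5.71% against 8.16% and 12.1%. Family Igkv6 took 10.2% and 8.98% in CCl4 and 9.87% and 10.5% in control. No test over families was made.

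The kappa segments span chr6:67555497-70704177 on GRCm38, and Igkc lies beyond them at chr6:70726435-70726966. With the span cut into 3 equal stretches, the one nearest to Igkc, with 35 segments, gave 44.5% and 40% of kappa-led cells in CCl4 and 51.9% and 46.9% in control. The farthest stretch, with 21 segments, gave 37.2% and 40.9% in CCl4 and 28.8% and 28.2% in control. The middle stretch, with 25 segments, gave 18.2% and 19.1% in CCl4 and 19.3% and 24.8% in control. Both CCl4 values were above both control values in the farthest stretch and below them in the other 2; no test was made. Segments on the minus strand led 58.7% and 59.1% of kappa-led cells in CCl4 and 56.9% and 60.4% in control, and the groups overlapped.

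Lambda chains were the minority in every library. By leading V segment, 37 of 284 and 25 of 245 assigned cells were lambda in CCl4, or 13.0% (95% exact Clopper-Pearson interval 9.34% to 17.5%) and 10.2% (6.71% to 14.7%). In control, 72 of 527 and 74 of 513 were lambda by this measure, or 13.7% (10.8% to 16.9%) and 14.4% (11.5% to 17.8%). Some cells of each library counted here as lambda held more Igkc than lambda constant counts, as given below. The mean was 11.6% ± 1.997 in CCl4 and 14.0% ± 0.539 in control (SD, n = 2 each). The exact permutation test, two-sided, gave p = 0.333, the smallest that these 4 libraries allow. With each heavy and light pair counted once, the lambda share was 10.5% and 10.7% in CCl4 and 10.4% and 10.6% in control.

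The constant regions, which the choice of segments did not use, gave a lower lambda share. Cells in which the lambda constant genes Iglc1, Iglc2 and Iglc3 together exceeded Igkc made up 10.4% and 8.14% of plasma cells in CCl4 and 10.6% and 10.5% in control. None of 1361 cells led by a kappa segment had more lambda than kappa constant counts. Of 187 cells led by Iglv1, 49 had more Igkc than lambda constant counts, 6 and 5 in CCl4 and 18 and 20 in control.

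**Figure D3:**
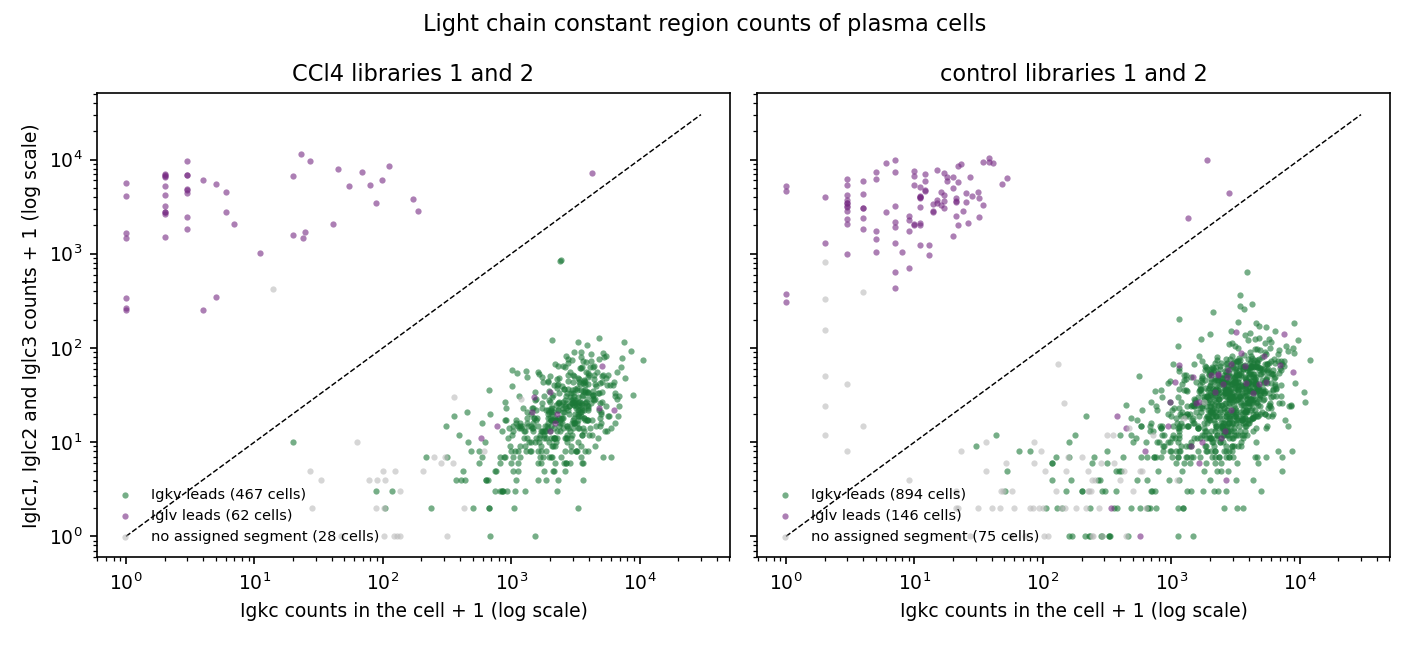
Counts of Iglc1, Iglc2 and Iglc3 summed (vertical axis, log scale, 1 added) against counts of Igkc (horizontal axis, log scale, 1 added) in each plasma cell, CCl4 libraries in the left panel and control libraries in the right; colours give the chain of the leading V segment and the dashed line marks equal counts. Cells led by a kappa segment lie below the line, whereas cells led by a lambda segment fall on both sides of it.

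Iglv1 was counted widely in kappa plasma cells. Of plasma cells with more Igkc than lambda constant counts, 80.6% and 81.0% held Iglv1 in CCl4 and 82.2% and 81.7% in control, with a median of 4 and 3 counts in CCl4 and 6 and 6 in control. Iglv2 was counted in 2.24% and 3.80% of those cells in CCl4 and 3.17% and 3.86% in control. Epithelial cells, which make no antibody, held Iglv1 in 1.29% and 0.979% of cells in CCl4 and 2.06% and 3.43% in control, at median depths of 11695 and 9983 counts in CCl4 and 9241 and 10272 in control. The level of Iglv1 in the kappa plasma cells was 787 and 711 CPM in CCl4 and 916 and 898 CPM in control.

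Iglv1 counts in kappa plasma cells stood in another proportion to the lambda constant genes than in lambda plasma cells. Over all libraries there were 408 Iglv1 counts per 1000 lambda constant counts in the 1502 kappa cells and 19.96 per 1000 in the 170 lambda cells. By library, kappa cells had 364 and 435 per 1000 in CCl4 and 437 and 397 in control. Among cells led by each of the 19 most used kappa segments, Iglv1 was the segment with the next most counts and held between 5.12% and 22.4% of light V counts. Within the kappa segments alone, the leading one held a median of 99.1% and 98.4% of kappa V counts in CCl4 and 99.2% and 98.3% in control.

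A second kappa segment with at least 5 counts and 20% of the kappa V counts was found in 9 of 253 and 11 of 225 kappa cells in CCl4, or 3.56% and 4.89%. In control it was found in 11 of 473 and 12 of 459, or 2.33% and 2.61%. Such cells had a median of 14294 and 14123 counts in CCl4 and 15929 and 18070 in control, beside 14487 and 12331 in the other CCl4 kappa cells and 14079 and 15797 in the other control kappa cells. Whether they were doublets or cells with both alleles in use was not tested.

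The lambda segments differed in their leading lambda constant gene. Iglv2 came with Iglc2 as the leading lambda constant gene in 14 of 15 cells, and Iglv3 with Iglc2 in 6 of 6. Iglv2 led 7 and 4 cells in CCl4 and 3 and 1 in control and was called higher by cells (log2 ratio 2.34 ± 0.68, SE; edgeR adjusted p = 0.0290), a call lost without CCl4 library 1 (2.01; 0.116) or control library 2 (1.81; 0.156). In summed counts it had 98.9 and 91.6 CPM in CCl4 and 16.3 and 6.78 in control (3.06 ± 0.31; edgeR adjusted p = 0.00172). A single cell held 48.3% and 60.5% of the Iglv2 counts in the CCl4 libraries and 38.0% and 25% in the control libraries. Iglv3 led 0 and 0 cells in CCl4 and 1 and 5 in control, too few for the test by cells, and its 39.0 and 45.8 CPM in CCl4 against 64.4 and 69.3 in control were not called (edgeR adjusted p = 0.0685).

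Iglv1 led 30 and 21 cells in CCl4 and 68 and 68 in control, 10.6% and 8.57% against 12.9% and 13.3%, and was not called (log2 ratio -0.44 ± 0.24, SE; edgeR adjusted p = 0.157). Of its cells with more lambda than kappa constant counts, Iglc1 led in 27 of 40 in CCl4 and in 21 of 98 in control, and Iglc3 led in 13 of 40 and in 76 of 98. All 71 control cells that paired Iglv1 with Ighv14-3 had Iglc3 as the leading lambda constant gene, and 0 cells of this pair were found in CCl4. In CCl4 the most frequent partner of Iglv1 was Ighv7-3, in 10 of 45 cells, and 9 of those had Iglc3 in the lead.

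Of the light constant genes, Iglc3 and Iglc2 were called in summed counts of plasma cells. Iglc3 had 8093 and 8090 CPM in CCl4 and 18400 and 17509 CPM in control, and was called lower (log2 ratio -1.15 ± 0.08, SE; edgeR adjusted p = 0.000112). Iglc2 had 4485 and 4660 CPM in CCl4 against 3211 and 3083 in control and was called higher (0.54 ± 0.08; edgeR adjusted p = 0.0163). Iglc1 had 20827 and 11176 CPM in CCl4 and 10539 and 5931 in control, with wide spread and no call (0.96 ± 0.30; edgeR adjusted p = 0.200). Igkc overlapped between groups, at 161453 and 167871 CPM in CCl4 and 180881 and 160925 in control (-0.05 ± 0.08; edgeR adjusted p = 0.855).

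The summed level of light V transcripts was lower in both CCl4 libraries by a small margin. All 84 segments together made up 5621 and 5488 CPM of plasma cell counts in CCl4 and 5817 and 5625 CPM in control. The difference in log2 CPM was -0.0424, and the exact permutation test gave its smallest possible p, 0.333, since the groups did not overlap. The median percent of light V counts per cell gave the opposite sign (0.0390). Immunoglobulin genes as a whole made up 50.8% and 50.9% of plasma cell counts in CCl4 and 56.6% and 54.2% in control.

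The effective number of segments (inverse Simpson, corrected for the number of cells) was 26.4 and 21.6 in CCl4 and 16.6 and 19.3 in control, with means of 24.0 ± 3.40 and 17.9 ± 1.87 (SD, n = 2 each; exact permutation p = 0.333, the smallest possible). The exponential of Shannon entropy, which gives rare segments more weight, was 35.2 and 28.7 in CCl4 and 27.4 and 29.3 in control, and the groups overlapped. They also overlapped over kappa segments alone (28.5 and 20.6 in CCl4, 17.0 and 21.2 in control) and with the segment taken within the chain of the constant region (28.1 and 21.8 in CCl4, 18.4 and 21.9 in control). The number of segments that led a cell was 55 and 48 in CCl4 and 60 and 57 in control, where more cells were read. In a draw of as many cells as the smallest library held, 53.1 and 48.0 segments would be seen in CCl4 and 47.3 and 47.6 in control. The 5 most used segments took 35.9% and 42.9% of cells in CCl4 and 44.4% and 43.7% in control.

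Libraries of a group used almost the same segments, and libraries of different groups overlapped less. The Morisita overlap of segment usage, which is about 1 for the same usage, can slightly exceed 1 after correction for cell number and is 0 where nothing is shared, was 1.02 between the CCl4 libraries and 0.987 between the control libraries. Over the 4 pairs across groups it ranged from 0.587 to 0.679, so the mean within groups was higher by 0.375. With 4 libraries no test of this difference was made. The CCl4 libraries shared 42 segments, 76.4% of the 55 in library 1 and 87.5% of the 48 in library 2. Across groups, 40 to 48 segments were shared, and they led 92.3% to 95.9% of CCl4 cells and 78.9% to 89.0% of control cells. Of segments seen in both libraries of a group, 1, Igkv7-33, was seen in no control cell and led 8 CCl4 cells, while 6 were seen in no CCl4 cell and together led 104 control cells, 76 of them with Igkv1-99. With 529 assigned cells in CCl4 and 1040 in control, the limit of 3 cells over the CCl4 group left Igkv13-84, Igkv4-80 and Iglv3 with bounds of 0.848-fold, 1.02-fold and 1.02-fold, so a difference in them was not detectable at this depth.

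Heavy and light V pairs overlapped less across groups than light segments did. A heavy V segment could be read in 264 and 232 assigned cells in CCl4 and in 496 and 502 in control, and these cells held 133 and 122 pairs in CCl4 and 192 and 198 in control. The overlap of pair usage was 0.980 between the CCl4 libraries and 0.949 between the control libraries, but between 0.0164 and 0.0234 across groups. In CCl4, 54.2% and 59.1% of cells carried a pair also found in the other CCl4 library, and in control 68.5% and 66.1% carried a pair found in the other control library. Across groups this share was 8.62% to 11.6% of CCl4 cells and 5.78% to 7.26% of control cells. Whether libraries of a group share animals is not stated, so differences in pairs between groups cannot be told apart from differences between animals.

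**Figure D4:**
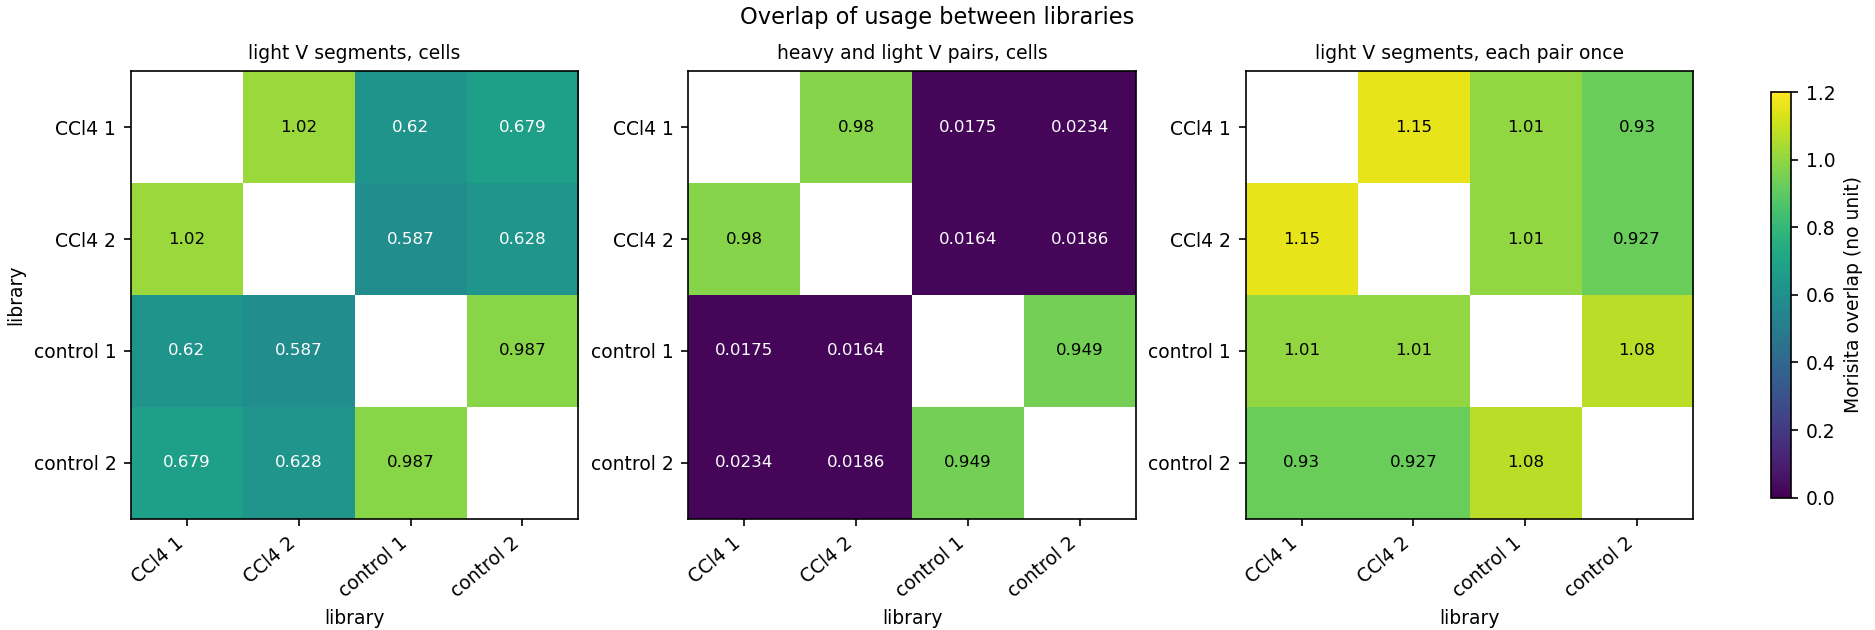
Morisita overlap (colour and number, no unit) between each pair of the 4 libraries, for leading light V segments over cells, for heavy and light V pairs over cells, and for light V segments with each pair counted once per library. Within-group overlap is near 1 in every panel, and across groups it is 0.587 to 0.679 for segments, at most 0.0234 for pairs and 0.927 to 1.01 once pairs are counted once.

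The 10 most frequent pairs were each found in both libraries of 1 group and in neither of the other. Ighv2-4 with Igkv8-21 was read in 0 and 0 cells in CCl4 and 79 and 53 in control. Ighv14-3 with Iglv1 was read in 0 and 0 cells in CCl4 and 32 and 39 in control. Ighv1-39 with Igkv14-111 was read in 19 and 22 cells in CCl4 and 0 and 0 in control, and Ighv10-3 with Igkv9-124 in 14 and 15 against 0 and 0. Of 21 pairs with at least 5 cells in CCl4, 20 were found in both CCl4 libraries and 17 in no control cell. Of 47 such pairs in control, 44 were found in both control libraries and 41 in no CCl4 cell. These pairs held 42.1% of CCl4 cells and 59.3% of control cells with both segments read. All pairs in this paragraph were picked for many cells, which makes being found in both libraries of the group likely. Over all pairs, 48 of 207 in CCl4 and 79 of 311 in control were found in both libraries of the group. Of all pairs in a library, 7.07% to 12.8% were also found in a given library of the other group.

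**Figure D5:**
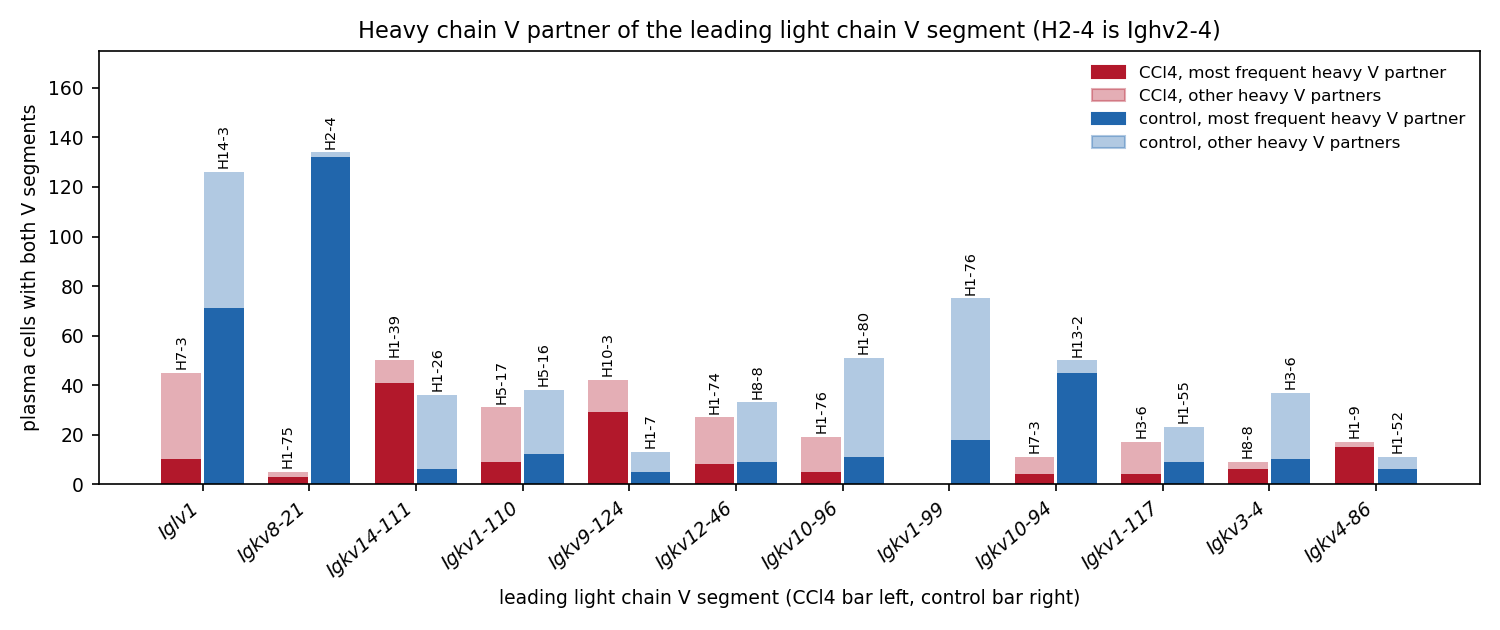
Number of plasma cells with both V segments read (vertical axis) for the 12 most used light V segments, CCl4 bar left and control bar right; the solid part is the most frequent heavy V partner, named above the bar, and the pale part all other partners. Igkv8-21 in control is almost wholly 1 pair (132 of 134 cells), while Igkv1-99 in control is spread over 19 partners.

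With each pair counted once per library, the libraries overlapped more across groups. The overlap was then 1.15 between the CCl4 libraries, 1.08 between the control libraries and 0.927 to 1.01 across groups. The effective number of segments was 42.0 and 36.0 in CCl4 and 34.7 and 32.7 in control. Iglv1 then took 9.02% and 9.02% of pairs in CCl4 and 9.38% and 9.09% in control. Igkv8-21 was in 1 and 3 pairs in CCl4 and 2 and 2 in control, too few for the test. Igkv1-99 was in 0 of 255 pairs in CCl4 and in 26 of 390 (6.67%) in control. A pair found in both libraries of a group is counted in each, so no fold limit is drawn from these numbers. Taken once per group, Igkv1-99 was in 0 of 207 pairs in CCl4 and in 19 of 311 in control. The counting of each pair once per library was added after the data were seen.

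The isotype of the assigned cells was IgA in nearly every case, as read from the leading heavy constant gene: Igha led in 98.9% and 98.4% of cells in CCl4 and 97.9% and 97.7% in control. Light V segments were also counted in deposited barcodes outside the plasma cells used, among them barcodes dropped by the filters or as doublets. Across the 84 segments, the share of each among counts outside plasma cells had a Spearman correlation of 0.861 and 0.734 with its share in plasma cells of the same library in CCl4 and of 0.736 and 0.840 in control. With plasma cells of the other group it was 0.413 to 0.626. The points of a correlation share a library and its depth, and B cells were among the cells outside. With doublets kept, the plasma cluster held 322 and 274 cells in CCl4 and 614 and 573 in control, against 299 and 258, and 565 and 550, used. Plasma cells dropped as doublets were therefore probably among the barcodes outside, and their part in these correlations was not tested.

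Lists of genes that act on light chain genes or on antibody secretion were read in the same fit. Over all genes edgeR called 1.5% (1.03% higher and 0.469% lower) and DESeq2 1.75%, and 12.9% had an unadjusted edgeR p under 0.05. Of 15 tested factors that bind light chain promoters and enhancers, 0 were called by edgeR, with 3 at an unadjusted p under 0.05 and 1 called by DESeq2. Of 7 recombination genes tested, from 11 listed, 0 were called (1 unadjusted, 0 by DESeq2). Of 6 genes of somatic mutation and class switching tested, from 7 listed, 0 were called (1 unadjusted, 0 by DESeq2). At the shares over all genes, lists of this size would hold few or no calls, so these zeros are no result about them. Of 19 tested genes of antibody assembly and secretion, 2 were called higher, the endoplasmic reticulum degradation factor Herpud1 and the chaperone Hspa5, and 0 lower, with 12 at an unadjusted p under 0.05 (5 higher and 7 lower, where 12.9% of all genes were at such a p) and a median log2 ratio of -0.21 for the list beside -0.00421 for all genes. Herpud1 had 1032 and 978 CPM in CCl4 and 592 and 540 in control (log2 ratio 0.83; edgeR adjusted p = 0.00428). Hspa5 had 2782 and 2978 CPM in CCl4 and 2048 and 2021 in control (0.50; edgeR adjusted p = 0.0299). DESeq2 called 6 of those 19, 3 higher and 3 lower, where over all genes it called 1.25% higher and 0.497% lower.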

How the data were processed

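The authors deposited 1 matrix of whole-number counts for each library; per the file headers PISA v0.12b produced it, and the submitters' processing notes name GRCm38. No source used here gives the aligner, the annotation or whether a count stands for a molecule or a read. Barcodes had at least 1001 counts, and libraries held 55834301 to 92383719 counts.

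Barcodes under 200 genes or over 25% mitochondrial counts were dropped, and the 6% with the highest Scrublet scores in each library were removed as doublets (scanpy 1.11.5). Cells were clustered with leidenalg 0.10.2 at resolution 1.0 on 30 principal components of 2000 variable genes, receptor segments left out, and named by markers. Segments were assigned as the report states. Counts summed per library, and cells per segment, were tested with edgeR 4.0.16 in R 4.3.3, with Benjamini-Hochberg adjustment over all genes or segments tested; DESeq2 1.42.0 was an alternative. The tests were also run on simulated counts, with cells drawn independently and a common spread for all genes. That setting leaves out cells that share a heavy and light pair, so no conclusion is drawn from it. Single values were compared by an exact permutation test over the 4 libraries, two-sided.

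Library numbers were not shown to pair the samples: same-numbered libraries deviated with a correlation of 0.024. The segments, the gene lists and the tests were chosen with earlier results of these data known. The segments named are the 10 most used, the Iglv segments, the leading segment of each library, and of those called the largest changes in each test (at most 6 in each direction, at least 50 CPM in summed counts), with the light constant genes and the called members of the lists; any other was named for its place at a limit or as a neighbour, after its values were seen. Alternatives covered filters, doublets, clustering, minimum counts, DESeq2, scaling, a replicate block and each library left out.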

Additional observations from a re-analysis of the deposited data

How the results depend on the processing

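The 18 segments called in summed counts (1.5% of all genes called) became 60 with no filter on low counts (2.39%), 36 with a replicate block (3.14%) and 33 to 38 with 1 library left out (2.09% to 2.9%); the 18 were among those called under each of these. DESeq2 gave 18 too (1.75%), 17 of them the same segments. The 13 called in cells per segment became 1 with DESeq2, whose spread was then a single mean value, 1 with each heavy and light pair counted once per library, and 6 to 10 with 1 library left out; the replicate block gave 10. The labels do not say that library numbers pair samples; of the 10 under the block, 9 were among the 13. The lambda difference of -2.43 percentage points was -1.33 by constant region counts and turned to 0.0797 with each pair counted once. The effective number of segments kept its sign under every alternative run (3.10 to 8.48), but the groups overlapped by Shannon entropy and within the chain of the constant region. The overlap difference of 0.375 was 0.186 with light V counts, 0.279 with 1 minus the Bray-Curtis distance, 0.412 with the leading segment taken within the chain of the constant region and 0.148 with each pair counted once. The light V level difference of -0.0424 turned to 0.0390 with the median percent per cell. Of the named segments, Igkv10-96 changed sign without CCl4 library 2 (0.05 in summed counts) and without control library 2; with 1 library left out it ranged from -0.59 to 0.37 in summed counts and from -0.89 to 0.068 in cells, and Igkv10-94 (0.59) and Igkv14-111 (-0.45) did so with each pair counted once. The cause of these shifts was not tested. With 2 libraries a group, no exact test could pass 0.05, and assignment depended on at least 5 light V counts in a cell.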
